A study of Mus musculus with 20 samples.

Results

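The genes described here encode the pair of opposed enzyme groups that set the activity of the pyruvate dehydrogenase complex: the kinases Pdk1, Pdk2, Pdk3 and Pdk4, the phosphatases Pdp1 and Pdp2, and Pdha1 and Pdhb, the subunits of the E1 enzyme on which they act. They were taken by name, 8 genes of the 53311 rows of the deposited count table, and followed across 4 groups of 5 mouse gastrocnemius (calf muscle) libraries. Every library carried the same genotype label, Cre+:iMSBmal1 fl/fl, which joins floxed Bmal1 alleles to a Cre. A vehicle group and a group labelled iMSBmal1KO, meant to lack BMAL1 in skeletal muscle, were studied. Each was sampled unexercised and 1 h after a 30-min treadmill bout, and all 4 groups were listed at zeitgeber time 13. The design asks what muscle BMAL1, a transcription factor of the circadian clock, and acute exercise do to the muscle transcriptome. The labels do not name the inducing agent, the promoter behind Cre, sex, age, or whether each library is a separate animal, so p-values measure the spread between these libraries. The sample descriptions of the exercised iMSBmal1KO group read as trained, while their titles read as acute exercise.

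The pyruvate dehydrogenase complex converts pyruvate to acetyl-CoA in mitochondria and so commits carbohydrate to oxidation. Kinases phosphorylate the E1 alpha subunit and switch the complex off, and phosphatases remove the phosphate and switch it on. In skeletal muscle PDK2 and PDK4 are the main kinases, PDK4 being the isoform whose transcript is known to rise with fasting and exercise, and PDP1 is the calcium-stimulated phosphatase that acts during contraction.

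Library totals ran from 8045154 to 11269812 counts, and 13560 genes, 7 of these 8 among them, passed the filter on low counts. Levels are given in CPM, counts scaled to library depth (per 1000000) and here to the counts of those tested genes. Arntl, the gene of BMAL1, was not lower in the knockout-labelled libraries, with fitted log2 differences of 0.24 at rest (edgeR adjusted p 0.725) and 0.20 in exercised muscle (edgeR adjusted p 0.689). A count over the whole gene includes exons outside a deleted stretch, so by itself it does not show whether that stretch was lost. These samples are therefore called knockout-labelled. The 8 fast-fibre markers, which define this mostly fast muscle, were abundant, with a summed level between 79612 and 158117 CPM in all 20 libraries. The 8 slow-fibre markers summed to anything from 37.8 to 3737 CPM, with wide ranges inside every group, and no marker of either list was called by edgeR in any comparison. Fewer cells of a type and less RNA per cell cannot be told apart in whole muscle.

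Promoter windows held 300 bases, from 250 before to 50 after the annotated start. In RefSeq (build GRCm38.p6) they were available for 7 of the 8 genes, all but Pdp1, whose promoter was not searched. Those of Pdk4, the gene called most often below, and of Pdk2 (1 of its 2 windows) and Pdp2, the genes that held the E-box CACGTG bound by the BMAL1 and CLOCK pair, are shown 5′ to 3′ on the gene's strand with the E-box in capitals.
Pdk4 (chr6:5496229-5496528, minus strand): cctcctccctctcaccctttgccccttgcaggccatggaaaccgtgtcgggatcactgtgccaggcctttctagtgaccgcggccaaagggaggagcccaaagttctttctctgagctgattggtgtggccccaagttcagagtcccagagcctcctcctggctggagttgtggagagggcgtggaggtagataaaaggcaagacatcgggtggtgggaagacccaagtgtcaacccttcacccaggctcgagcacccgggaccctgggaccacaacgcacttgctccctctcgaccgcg
Pdk2 (chr11:95041322-95041621, minus strand): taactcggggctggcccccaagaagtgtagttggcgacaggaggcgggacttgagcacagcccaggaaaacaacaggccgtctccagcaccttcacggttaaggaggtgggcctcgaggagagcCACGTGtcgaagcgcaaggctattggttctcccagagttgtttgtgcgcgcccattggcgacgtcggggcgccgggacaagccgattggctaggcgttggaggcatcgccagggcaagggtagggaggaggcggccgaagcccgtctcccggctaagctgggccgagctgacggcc
Pdp2 (chr8:104591222-104591521, plus strand): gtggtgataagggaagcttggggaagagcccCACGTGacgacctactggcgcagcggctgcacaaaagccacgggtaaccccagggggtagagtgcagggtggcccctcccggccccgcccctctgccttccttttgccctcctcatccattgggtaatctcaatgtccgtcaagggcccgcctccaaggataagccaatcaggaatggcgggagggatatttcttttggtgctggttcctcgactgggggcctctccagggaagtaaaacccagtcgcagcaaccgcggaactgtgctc
The E-box lay at -126 from the start in Pdk2 and at -219 in Pdp2, and 7.15% of 32851 promoter windows held 1 on either strand. AGGTCA, a core hexamer bound by nuclear receptors, and GTAAACA, a core bound by FOXO factors, were searched on both strands as well. Neither was found in any window of the 7 genes, against 16.3% and 3.65% of all windows. The Pdk4 window held none of the 3 motifs, which says only that these letters are not in this stretch.

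Per kilobase of exon, the kinases were dominated by a pair of isoforms. In vehicle muscle at rest the levels in CPM per kb were 163 ± 26.1 for Pdha1, 142 ± 6.51 for Pdk2, 125 ± 4.55 for Pdk4, 55.9 ± 6.67 for Pdhb, 16.8 ± 1.77 for Pdp1, 7.20 ± 1.33 for Pdk1, 0.835 ± 0.291 for Pdp2 and 0.256 ± 0.116 for Pdk3 (SD, n = 5). Of these neighbours in the order, Pdha1 and Pdk2 overlapped, while Pdk2 stayed above Pdk4 in each of the 5 libraries on this scale per kb. After exercise in knockout-labelled muscle Pdk4 stood first at 366 ± 88.5 CPM per kb, ahead of Pdha1 at 174 ± 27.5 and Pdk2 at 144 ± 3.97 CPM per kb (SD, n = 5). The lowest Pdk4 level there, 285 CPM per kb, was above the highest Pdha1 level, 202 CPM per kb.

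**Figure D1:**
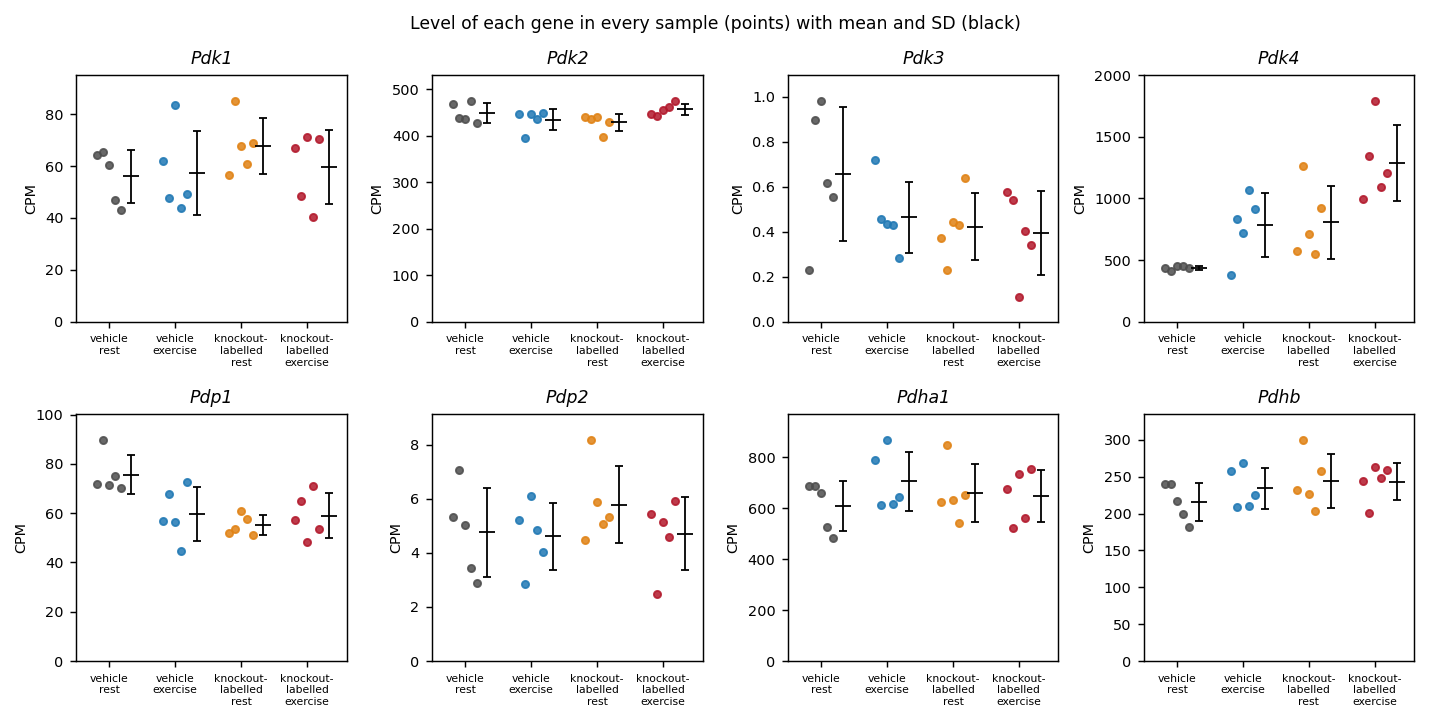
Level of each of the 8 genes in CPM (y axis, from 0) in every library of the 4 groups (x axis); points are libraries, black bars the group mean and SD (n = 5). Pdk4 is tight at 415 to 456 CPM in vehicle at rest and higher and more spread in the other groups, Pdp1 is highest in vehicle at rest, and Pdk2 stays between 395 and 474 CPM throughout.

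Pdk4 was called in 3 of the 7 comparisons, more than any other of these genes. Averaged over rest and exercise it was 1.74-fold higher in knockout-labelled than in vehicle muscle (95% interval 1.36 to 2.23), a log2 fold change of 0.80 (SE 0.17, edgeR adjusted p 0.00381). It was the only called gene of the 7 tested in that comparison, in which 5.18% of all tested genes were called higher. The call held in all 8 other fits of this comparison that kept every library and in all 20 that left out 1, with adjusted p from 4.34e-05 to 0.0162. Pdk4 lies on the minus strand of chromosome 6, with its gene model at chr6:5483351-5496309 (GRCm38, GENCODE).

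At rest, Pdk4 measured 433, 415, 449, 456 and 433 CPM in the vehicle libraries, replicates 1 to 5. In the knockout-labelled libraries at rest it measured 576, 1260, 714, 551 and 925 CPM. All 5 knockout-labelled libraries lay above all 5 vehicle libraries, and they also scattered far more, with a coefficient of variation of 36.6% against 3.65%. The means were 437 ± 16.0 and 805 ± 294 CPM (SD, n = 5 each), and the log2 fold change was 0.88 (SE 0.24, edgeR adjusted p 0.0478). Of the 7 genes tested, Pdk4 was called higher and Pdp1 lower, where 1.80% of all tested genes were called higher and 2.06% lower. Groups did not overlap for these 2 genes, as for 5.80% of all tested genes. The Pdk4 call at rest sat at the threshold: it was lost without a filter on low counts (adjusted p 0.148), by limma-voom (0.0539), with library size only (0.0524), with the slow-fibre score as a covariate (0.0671) and in 8 of 10 fits that left out 1 library. Without knockout-labelled replicate 2, the highest library, the log2 fold change was 0.65 (adjusted p 0.174).

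After exercise, Pdk4 measured 376, 834, 716, 1066 and 916 CPM in the vehicle libraries and 999.7, 1348, 1791, 1090 and 1204 CPM in the knockout-labelled libraries. Of the knockout-labelled libraries, 4 of 5 lay above every vehicle library. The means were 781 ± 260 and 1286 ± 311 CPM (SD, n = 5 each), with a log2 fold change of 0.72 (SE 0.24, edgeR adjusted p 0.0862). None of the 7 genes was called by edgeR in this comparison, against 6.42% of all tested genes. At an unadjusted p under 0.05 by edgeR stood 1 of the 7, and 2632 of all 13560 tested genes. DESeq2 called Pdk4 here (adjusted p 0.0349), and limma-voom called 0 of the 7.

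Exercise went with more Pdk4 in the average over both kinds of muscle, though edgeR called it in neither kind alone. Over vehicle and knockout-labelled muscle the level after exercise was 1.69-fold that at rest (95% interval 1.32 to 2.17), a log2 fold change of 0.76 (SE 0.17, edgeR adjusted p 0.0480). Pdk4 was again the only called gene of the 7, and 0.494% of all tested genes were called higher. That call was lost in 5 of the 8 other fits with all libraries, with adjusted p up to 0.145 without a filter, and in 18 of the 20 that left out 1 library.

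Within vehicle muscle, 4 of 5 exercised libraries lay above every rested library in Pdk4, and replicate 1, at 376 CPM, lay below them all. The log2 fold change was 0.84 (SE 0.24, edgeR adjusted p 0.160). No member was called by edgeR (0 of 7), where 0.804% of all tested genes were called. At an unadjusted p under 0.05 by edgeR stood 2 of the 7, and 1209 of all 13560 tested genes. Without vehicle exercised replicate 1 the log2 fold change of Pdk4 was 1.01 and it was called (adjusted p 0.0225), as it was by DESeq2 with all libraries (adjusted p 0.0297). Within knockout-labelled muscle, 2 of 5 exercised libraries lay above every rested library, with a log2 fold change of 0.68 (SE 0.24, unadjusted p 0.0116, edgeR adjusted p 1.00). No member and no other gene was called there by edgeR, DESeq2 or limma-voom with all libraries and 1 mean per group (0% of tested genes), while 639 reached an unadjusted p under 0.05 by edgeR. When the fit also held a score of slow-fibre markers, edgeR called 5 genes, none of them a member.

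The response of Pdk4 to exercise was not shown to differ between vehicle and knockout-labelled muscle. The interaction had a log2 value of -0.16 with a 95% interval from -0.88 to 0.55 (edgeR adjusted p 0.992), which leaves room for a response up to 1.47-fold larger or 0.545-fold as large in knockout-labelled muscle. By edgeR no member (0 of 7, with Pdp1 at an unadjusted p under 0.05) and 0% of all tested genes were called for the interaction, while an unadjusted p under 0.05 was reached by 791. DESeq2 called 2 genes, neither a member. These comparisons share libraries, so each vehicle or rested group enters several of them.

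**Figure D2:**
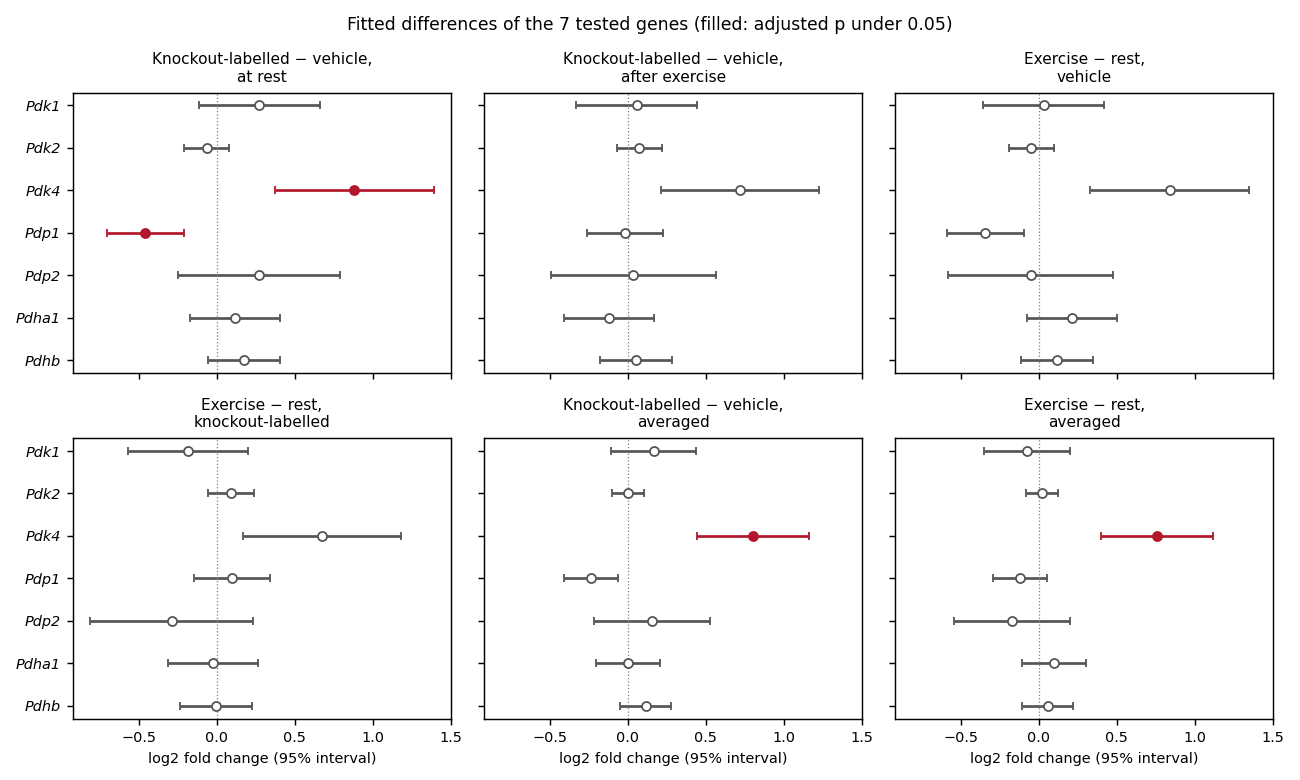
Fitted log2 fold change (x axis) of the 7 tested genes (y axis) in 6 comparisons, with 95% intervals from edgeR; filled red points have an adjusted p under 0.05. Pdk4 lies to the right of 0 in every panel, at 0.68 to 0.88, and Pdp1 lies to the left at rest, at -0.46.

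Pdp1, the more abundant phosphatase, was lower in knockout-labelled muscle at rest. It measured 72.0, 89.6, 71.4, 75.2 and 70.2 CPM in vehicle replicates 1 to 5 and 52.1, 53.4, 61.0, 57.7 and 51.3 CPM in the knockout-labelled replicates. All 5 knockout-labelled libraries lay below all 5 vehicle libraries. The level fell by 27.2% (log2 fold change -0.46, SE 0.12, edgeR adjusted p 0.0272), from 75.7 ± 7.99 to 55.1 ± 4.11 CPM (SD, n = 5 each). The call held in all 9 other fits with every library and was lost in 5 of 10 that left out 1, where the adjusted p reached 0.0717 without vehicle replicate 2.

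After exercise Pdp1 measured 56.8, 67.8, 56.2, 44.7 and 72.8 CPM in vehicle muscle and 57.2, 65.1, 48.1, 71.1 and 53.5 CPM in knockout-labelled muscle. These ranges overlapped throughout, with means of 59.7 ± 11.01 and 59.0 ± 9.16 CPM (SD, n = 5 each) and a log2 fold change of -0.02 (95% interval -0.26 to 0.23, edgeR adjusted p 0.960). In vehicle muscle, 4 of 5 exercised libraries lay below every rested library, with a log2 fold change of -0.34 (SE 0.12, edgeR adjusted p 0.278). In knockout-labelled muscle the exercise value was 0.10 (SE 0.12, edgeR adjusted p 1.00). The difference between these exercise values, 0.44 (SE 0.17), had an unadjusted p of 0.0150 and an edgeR adjusted p of 0.780, so it did not pass the test over all genes. Pdp1 lies at chr4:11958184-11966452 on the minus strand (GRCm38).

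Pdp2, the other phosphatase, was measured at a low level, with 23 to 79 counts per library. Its means were 4.75 ± 1.66 and 4.61 ± 1.24 CPM in vehicle muscle at rest and after exercise, and 5.78 ± 1.42 and 4.71 ± 1.34 CPM in knockout-labelled muscle (SD, n = 5 each). All groups overlapped and it was called in none of the 7 comparisons, with 95% intervals for the averaged label difference running from 0.860- to 1.44-fold. Pdp1 made up 92.3% to 95.3% of the summed phosphatase level per kb in the group means.

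Pdk2, the constitutive kinase of muscle, varied little. Its means were 449 ± 20.6 and 434 ± 22.5 CPM in vehicle muscle at rest and after exercise, and 429 ± 17.9 and 456 ± 12.5 CPM in knockout-labelled muscle (SD, n = 5 each), and within groups its coefficient of variation was 2.75% to 5.19%. The averaged label difference was 1.00-fold with a 95% interval from 0.933 to 1.08, and it was called in none of the 7 comparisons. In knockout-labelled muscle the 5 exercised libraries, at 448, 443, 456, 462 and 474 CPM, lay above the 5 rested ones, at 441, 436, 440, 398 and 428 CPM. The size of that difference was small (log2 fold change 0.09, SE 0.07, edgeR adjusted p 1.00), and groups did not overlap for 0.848% of all tested genes in that comparison.

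Pdk1, the kinase known to be induced by hypoxia, measured 56.0 ± 10.3 and 57.2 ± 16.2 CPM in vehicle muscle at rest and after exercise, and 67.7 ± 10.9 and 59.5 ± 14.3 CPM in knockout-labelled muscle (SD, n = 5 each). Its groups overlapped in every comparison and none was called. Pdk3 was close to absent, with 1 to 10 counts per library and group sums of 30, 22, 19 and 18 counts, and did not pass the filter. Without a filter its averaged label difference was -0.44 (SE 0.39, edgeR adjusted p 0.716), so a change was not detectable at this depth.

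The E1 subunits, the substrate of both enzyme groups, did not pass the test in any comparison. Pdha1, which carries the phosphorylation sites, measured 608 ± 97.4 and 706 ± 116 CPM in vehicle muscle at rest and after exercise, and 661 ± 114 and 650 ± 103 CPM in knockout-labelled muscle (SD, n = 5 each). Pdhb measured 216 ± 25.8, 234 ± 27.3, 244 ± 36.5 and 243 ± 25.1 CPM in the same order (SD, n = 5 each). The averaged label difference was 1.00-fold for Pdha1 (95% interval 0.868 to 1.15) and 1.08-fold for Pdhb (0.968 to 1.21). Exons of Pdha1 overlap those of Map3k15 on the opposite strand by 603 bases, and strand use in the counting is not stated, so some Pdha1 counts could belong to that gene.

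The make-up of the kinase transcripts followed the level of Pdk4. As a share of the summed kinase level per kb, Pdk4 made up 45.5 ± 1.21% in vehicle at rest, 59.0 ± 10.4% in vehicle after exercise, 60.0 ± 7.54% in knockout-labelled muscle at rest and 70.0 ± 4.60% in knockout-labelled muscle after exercise (SD, n = 5 each). The Pdk2 share was 51.8 ± 1.04% in vehicle at rest and 28.4 ± 4.42% in knockout-labelled muscle after exercise. Per kb, Pdk2 exceeded Pdk4 in all 5 libraries of vehicle at rest. In the other 15 libraries Pdk4 exceeded Pdk2 except in vehicle exercised replicate 1, where the ratio of Pdk4 to Pdk2 was 0.758. The order at rest depends on the exon lengths, 3.163 kb for Pdk2 and 3.511 kb for Pdk4. In CPM, Pdk4 was above Pdk2 in vehicle rested replicates 3 (449 against 436) and 5 (433 against 427), and below it in replicates 1, 2 and 4. The ratio of summed kinase to summed phosphatase level per kb was 15.7 ± 1.74, 26.9 ± 8.60, 28.4 ± 7.05 and 38.3 ± 11.4 in the 4 groups in that order. With Pdk4 left out of the kinases it was 8.55 ± 0.900, 10.6 ± 2.00, 10.95 ± 0.948 and 11.1 ± 1.70. These ratios restate the levels above and carry no test of their own.

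**Figure D3:**
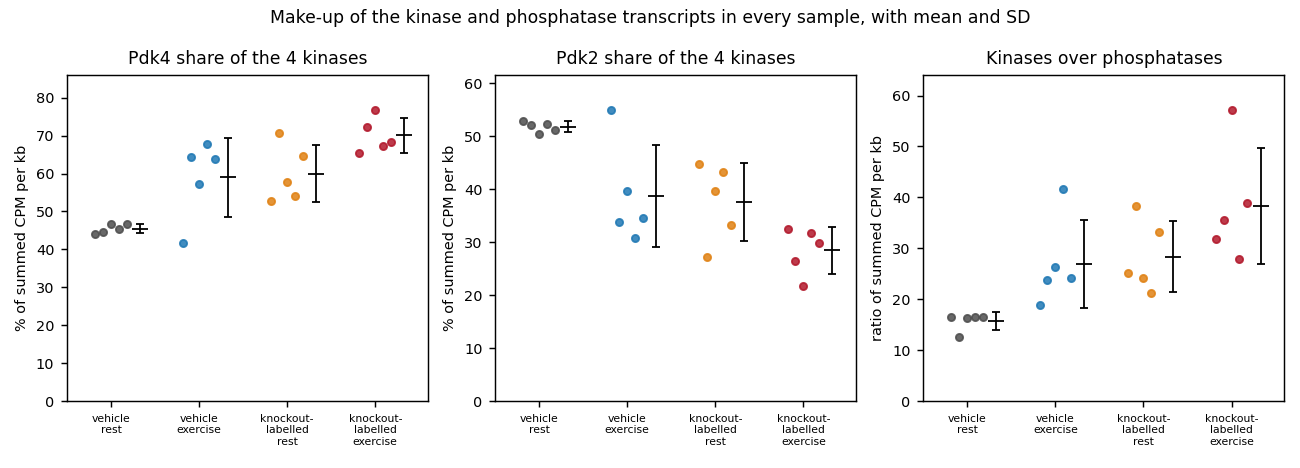
Share of Pdk4 and of Pdk2 in the summed level of the 4 kinases (left and middle, % of CPM per kb) and ratio of summed kinase to summed phosphatase level (right), in every library of the 4 groups, with mean and SD (n = 5). The mean Pdk4 share is 45.5% in vehicle at rest and 70.0% in knockout-labelled muscle after exercise, and the mean Pdk2 share is 51.8% and 28.4% in these groups.

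Inside the groups, the E1 subunits, Pdk1 and Pdp2 were higher in libraries rich in slow-fibre markers, and no such relation passed the test for Pdk4 or Pdp1. How many of all tested genes rose with these markers was not counted, so the relation is not shown to be particular to these genes. A slow-fibre score, the mean log2 CPM of 8 markers such as Myh7 and Tnni1, ran from -0.20 to 8.52 over the 20 libraries, with group means of 6.16 ± 2.21 and 4.79 ± 3.45 in vehicle at rest and after exercise and 7.17 ± 1.59 and 4.44 ± 3.37 in knockout-labelled muscle (SD, n = 5 each). Deviations of log2 CPM from the group mean were correlated with those of the score over 20 libraries, with two-sided permutation p-values from 100000 shuffles within groups, for 7 genes, adjusted by Benjamini-Hochberg. For Pdha1, Pearson's r was 0.85 (permutation p 1e-05, the smallest that the shuffles can give, adjusted 3.50e-05) and Spearman's rho 0.88 (permutation p 1e-05, adjusted 7.00e-05), and r was 0.85 (permutation p 5.00e-05, adjusted 3.50e-04) without the 2 libraries farthest from the median score. For Pdhb r was 0.77 (permutation p 1e-05, the same floor, adjusted 3.50e-05) and rho 0.81 (permutation p 3.00e-05, adjusted 1.05e-04), with r 0.73 (permutation p 1.90e-04, adjusted 6.65e-04) without those libraries.

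For Pdk1 r was 0.81 (permutation p 2.40e-04, adjusted 4.72e-04) and rho 0.83 (permutation p 1.60e-04, adjusted 2.80e-04), with r 0.82 (permutation p 6.20e-04, adjusted 0.00145) without those 2 libraries. Pdp2 had r 0.74 (permutation p 2.70e-04, adjusted 4.72e-04), rho 0.78 (permutation p 1.30e-04, adjusted 2.80e-04) and r 0.60 without them (permutation p 0.0102, adjusted 0.0179). Pdk2 had r 0.65 (permutation p 0.00242, adjusted 0.00339) and rho 0.57 (permutation p 0.0146, adjusted 0.0204), but r was 0.41 without them and did not pass (permutation p 0.0619, adjusted 0.0866), so that relation rests on those libraries. Pdk4 (r -0.08, permutation p 0.790; rho -0.10, permutation p 0.679; r -0.03 without them) and Pdp1 (r -0.32, permutation p 0.283; rho -0.30, permutation p 0.286; r -0.31 without them) did not pass, with adjusted p of 0.790 and 0.330 for r. With the score in the model as a covariate, the averaged label difference of Pdk4 was called (0.80, edgeR adjusted p 0.00779). In the same fit the Pdk4 calls at rest (edgeR adjusted p 0.0671) and for averaged exercise were lost. The log2 fold change at rest was 0.89 in that fit and 0.88 without the score. The part of fibre make-up in the Pdk4 differences was not tested.

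**Figure D4:**
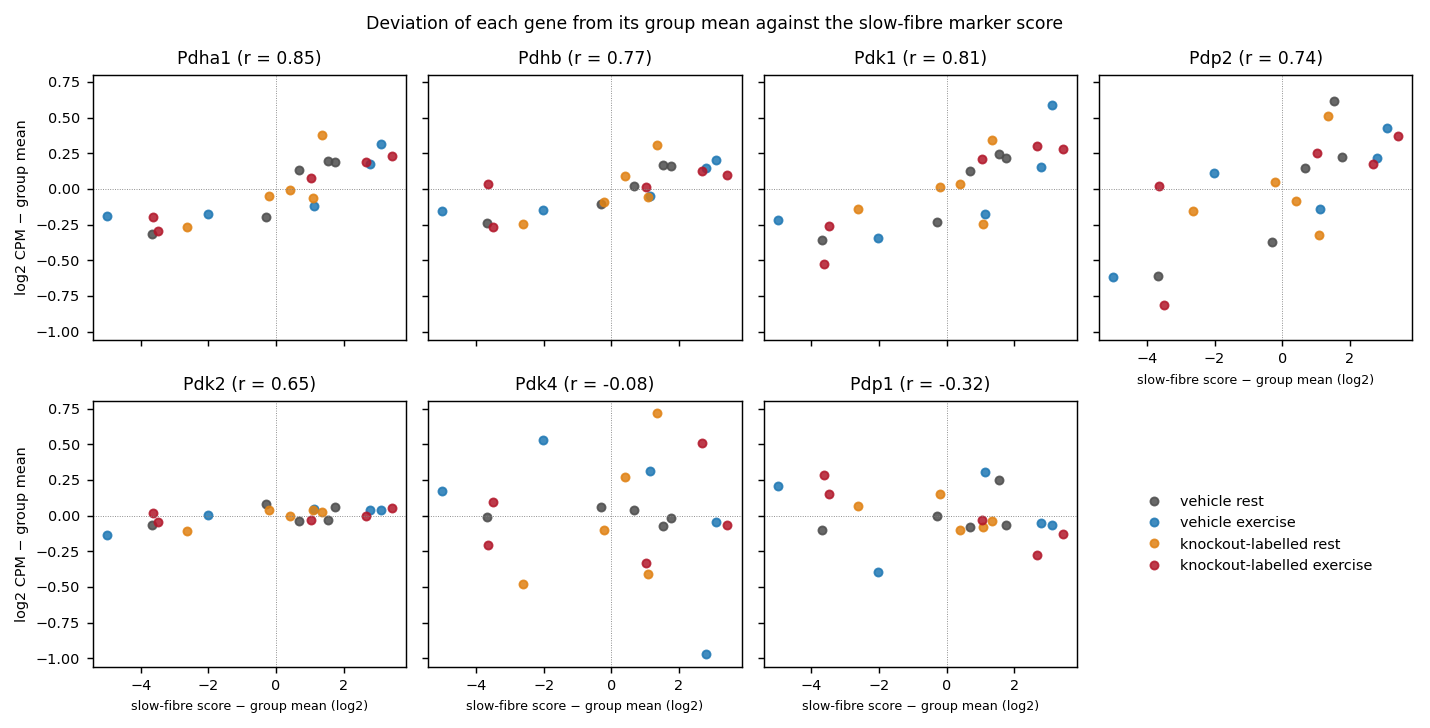
Deviation of log2 CPM from the group mean (y axis) against the deviation of the slow-fibre score from its group mean (x axis, log2) for the 7 tested genes; each point is 1 of 20 libraries, coloured by group. Pdha1, Pdhb, Pdk1 and Pdp2 climb with the score (r 0.74 to 0.85), Pdk2 moves little, and Pdk4 and Pdp1 show no slope that passed the test.

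By the same within-group deviations, the genes most like Pdk4 among 11723 were Ppwd1 (r 0.76, rho 0.56), Naa20 (r 0.75, rho 0.68) and Snx18 (r 0.74, rho 0.61) over 20 libraries. Those most like Pdp1 were Amot (r 0.84, rho 0.83), 1700123M08Rik (r 0.83, rho 0.77) and Pigk (r 0.83, rho 0.78). These are the highest of many values and are given as a description of likeness.

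Around the E1 enzyme and its regulators, the label calls fell on a subunit of the complex and on genes that handle pyruvate. Of Dlat, Dld, Pdhx and Pdpr, only Pdhx, the E3-binding subunit, was called: it rose from 67.9 ± 5.47 to 83.6 ± 8.36 CPM at rest (SD, n = 5 each; log2 fold change 0.30, edgeR adjusted p 0.0495) and was called higher on average as well (0.20, edgeR adjusted p 0.0317). The Pdhx call at rest held in 4 of 9 other fits with every library and in 1 of 10 with 1 left out, and the averaged call in 6 of 8 and 11 of 20. Of 10 genes of pyruvate supply and fate, Mpc1, a subunit of the mitochondrial pyruvate carrier, was lower at rest (-0.47, edgeR adjusted p 0.0137) and after exercise (-0.53, edgeR adjusted p 0.00404). Gpt, the alanine aminotransferase that interconverts pyruvate and alanine, was higher at rest (1.06, edgeR adjusted p 5.00e-04) and after exercise (1.04, edgeR adjusted p 4.61e-04), from 21.3 ± 2.91 to 44.3 ± 7.74 CPM at rest (SD, n = 5 each). Averaged over both states, 1 of the 10 was called higher (Gpt, 1.05) and 3 lower: Mpc1 (-0.50), the pyruvate carboxylase gene Pcx (-0.39) and the monocarboxylate transporter gene Slc16a3 (-0.49). Over all tested genes 1.80% were called higher and 2.06% lower at rest, and 6.42% in either direction after exercise. For the averaged label difference 5.18% were called higher and 5.78% lower. The Slc16a3 call held in 17 of 20 fits that left out 1 library, and the other 3 in all 20. The median log2 fold change of the 10 in that comparison was -0.27, against 0.01 over all tested genes, and exercise called none of them. Of the branched-chain counterparts Bckdk, Ppm1k, Bckdha and Bckdhb, a kinase, phosphatase and substrate arranged in the same way, 0 of 4 were called in any comparison by edgeR.

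Among 12 genes known to regulate Pdk4 or its relatives, the calls in the 2 label comparisons did not run in 1 direction. At rest 1 was higher in knockout-labelled muscle, Lpin1, a coactivator of PPAR factors, at 407 ± 30.9 against 284 ± 14.8 CPM (SD, n = 5 each; log2 fold change 0.52, edgeR adjusted p 8.09e-04). After exercise 2 were lower, Nr3c1, the glucocorticoid receptor gene (-0.68, edgeR adjusted p 0.00148), and Foxo1, a FOXO factor known to bind Pdk4 (-1.14, edgeR adjusted p 0.0245), whose call held in 6 of 10 fits that left out 1 library. Exercise in vehicle muscle called 4 of the 12 higher: Lpin1 (0.58, edgeR adjusted p 0.00179), Nr3c1 (0.63, 0.0154), Foxo1 (1.42, 0.0287) and Klf15 (0.58, 0.0397). Of all tested genes, 1.80% were called higher by label at rest and 6.42% in either direction by label after exercise. For exercise in vehicle muscle that share was 0.804% in either direction. The calls of Foxo1 and Klf15 in vehicle muscle held in 4 and 2 of 10 fits that left out 1 library, and those of Nr3c1 and Lpin1 in 7 and 10. Foxo1 stood at 26.6 ± 8.37 CPM at rest and 71.1 ± 29.4 CPM after exercise in vehicle muscle, and at 24.8 ± 5.92 and 32.3 ± 9.88 CPM in knockout-labelled muscle (SD, n = 5 each), and its interaction was not called. Averaged over both states, Lpin1 (0.27) and Hif1a (0.45) were called higher and Ppard (-0.27), Rxra (-0.33) and Nr3c1 (-0.34) lower, all held in 20 of 20 fits that left out 1 library except Rxra, in 18. Averaged over both labels, exercise called Lpin1 higher (0.33). Of all tested genes, 5.18% were called higher and 5.78% lower by averaged label, and 0.494% higher by averaged exercise. The median of the 12 for exercise in vehicle was 0.41, against 0.00 over all tested genes. The list was chosen with earlier results of these data known, so its counts and median are a description.

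Calls among genes known to respond to the same regulators as Pdk4 are listed here with the shares over all tested genes. By averaged label 5.18% of all tested genes were called higher and 5.78% lower, and by averaged exercise 0.494% higher. For exercise in vehicle muscle 0.804% were called in either direction, and by label after exercise 6.42%. These lists were chosen with earlier results of these data known. Of 13 tested PPAR and fatty acid genes, 0 were called in the simple comparisons by edgeR. Cpt1a, which encodes an isoform of the entry enzyme of long-chain fatty acids into mitochondria, was called in the averaged comparisons. It was lower by label (-0.42, edgeR adjusted p 0.0401) and higher by exercise (0.58, edgeR adjusted p 0.0396). These calls held in 10 and 4 of 20 fits that left out 1 library. The other genes of that list were not called. Fitted averaged label values lay above 0 for 9 of the 13, and that share was not counted over all tested genes. The median log2 fold change of the 13 was 0.26, against 0.01 over all tested genes. Of 7 FOXO targets in muscle, Sesn1 was higher by label (0.44, edgeR adjusted p 0.0157) and Irs2 higher by exercise (1.57, edgeR adjusted p 0.0389) when averaged, held in 20 and 6 of 20 fits that left out 1 library. Of 6 glucocorticoid targets, Klf15 was called for exercise in vehicle, Per1 (-0.80) and Tsc22d3 (-0.65) were lower by averaged label, and Per1 was higher by averaged exercise (1.03, edgeR adjusted p 0.0326), the last call held in 9 of 20 such fits and those by label in all 20. Of 8 hypoxia targets, 0 were called in any comparison by edgeR. Of the marker lists for fat, blood, endothelium, macrophages, fibroblasts and nerve, a single gene was called, Hba-a2, lower in knockout-labelled muscle after exercise (-1.90, edgeR adjusted p 0.0198; held in 7 of 10 fits that left out 1 library), and the part of these cells in the results was not tested.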

How the data were processed

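Raw counts per gene were deposited by the authors for 20 libraries. The submitters' processing notes name Partek, STAR 2.7.8a, DESeq2 and the builds mm10 and GRCm39, without roles; strand use is not given in the sources used here. The 8 genes and all lists were chosen with earlier results of these data known. Counts were fitted with edgeR 4.0.16 (R 4.3.3; quasi-likelihood, robust, TMM scaling, filterByExpr), 1 mean per group over all 20 libraries, 7 contrasts, Benjamini-Hochberg over 13560 genes and a threshold of 0.05. Those genes held 99.8% of counts. log2 CPM used a prior count of 2. Exon lengths came from GENCODE (GRCm38), so levels per kb assume those models.

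Named were all members, called list genes (at most 5 per list and comparison), the 3 genes most like each called member, and Arntl. The fitting script was tested on simulated data. DESeq2 1.42.0, limma-voom 3.58.1, other scaling and filters, a slow-fibre covariate, a replicate block and leaving out each library were alternatives. The slow-fibre correlations were added after the data were seen.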

Additional observations from a re-analysis of the deposited data

Results flagged for a closer look

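The 8 genes and 5 shares or ratios in 4 groups gave 52 sets of values, each over 5 libraries. In 5 of them 1 library lay far from the others relative to the range, where chance gives about 1 in 20 per set. The shares and ratios reuse the gene values, so the sets are not independent. Pdp1 in vehicle muscle at rest stood at 89.6 CPM in replicate 2, against 70.2 to 75.2 CPM in the others. The same library had the lowest ratio of kinases to phosphatases, 12.6 against 16.4 to 16.5, and the lowest ratio of Pdk4 to Pdp1, 5.95 against 7.71 to 8.07. Both ratios have Pdp1 in the denominator. Pdk2 stood at 395 CPM in vehicle exercised replicate 2, against 436 to 448 CPM in the others. It stood at 398 CPM in knockout-labelled replicate 4 at rest, against 428 to 441 CPM. These last libraries had the lowest slow-fibre scores of their groups, -0.20 and 4.54. The cause was not tested.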

How the results depend on the processing

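In knockout-labelled against vehicle muscle at rest, 2 of the 7 genes were called. The number was 1 with library size only, by limma-voom, without a filter and with the slow-fibre covariate, and 0 to 2 with 1 library left out. After exercise the number was 0, and 1 by DESeq2. For exercise in vehicle it was 0, and 1 by DESeq2 and 0 to 1 with 1 library left out. For the averaged label difference it was 1, and 2 with the slow-fibre covariate (Pdp1, adjusted p 0.0369) and 1 to 2 with 1 library left out: without vehicle exercised replicate 4 (Pdp1 adjusted p 0.0205) or knockout-labelled exercised replicate 4 (0.0319). For averaged exercise it was 1, and 0 with RLE size factors, library size only, limma-voom, no filter or the slow-fibre covariate, and 0 to 1 with 1 library left out. For exercise in knockout-labelled muscle and the interaction it was 0 in all fits run. The cause was not tested. With the replicate number as a block the numbers were 2, 0, 0, 0, 0, 1 and 1, the same in all 7 comparisons. The labels do not tie numbers to animals or days: 15 of 30 same-numbered pairs had correlated deviations above 0.1, and 4 of 20 libraries correlated best with their own number.

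Of 1120 recomputed values of the 7 genes, 63 that were not called changed sign, none larger than 0.185 in size on the log2 scale, and 0 called values did. Of 31 calls of other listed genes, 18 held in every fit with all libraries and 18 with each library left out; the sign never changed in these fits. Among alternatives added after seeing the data, the 7 slow-fibre correlations (Pearson's r) kept their side of the threshold with RLE size factors, with library size only and with each library left out. Without the 2 libraries farthest from the median score, that of Pdk2 did not pass (r 0.41, permutation adjusted p 0.0866) and the other 6 kept their side. The depth, 8045154 to 11269812 counts, limits what can be said of Pdk3, with 1 to 10 counts per library.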
